A study of Mus musculus with 4 samples.

Results

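A stretch of mouse chromosome 17 at the distal end of the major histocompatibility complex (MHC) was examined in a replication profile of embryonic stem cells. It spans class I genes left of Trim26, Trim26 itself and the olfactory receptor genes. It holds 97 of the 109033 windows of the deposited table, those that start between 36100001 and 38500001 in GRCm38, and all 97 have a value in all 4 libraries. The stretch was chosen on the values themselves, because it holds a rise taken to be one of the steepest of the profile and because that rise was larger in cells without Snf2h. The 5 member genes are Trim26, Zfp57, Mog, Gabbr1 and H2-M3, and all lie within the rise. What follows for the rise and for the member genes is therefore a description and carries no test.

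Mouse embryonic stem cells labelled 129S6/SvEvTac, grown with LIF and serum on gelatin with no treatment named, were profiled by TrAEL-seq as wild type (WT, 2 libraries) and as Snf2h knockout (KO, genotype label SNF2KO, 2 libraries). Snf2h is an ATPase of the ISWI family of chromatin remodelling complexes, which space nucleosomes. The labels do not say how the allele was made or how many clones were used, and expression was not analysed here, so the knockout rests on the labels. The design text says that cells were cultured in duplicate, so p-values measure the spread between such duplicates.

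TrAEL-seq captures free 3′ ends of DNA, many of which lie at replication forks, and reads the strand they are on. Polarity is the signed imbalance of the strands in a window, in percentage points from -50 to 50, written here as points. Replication starts at origins, from which a pair of forks moves apart, and ends where forks meet. Along a chromosome, polarity therefore changes sign in one direction over zones of initiation and in the other over zones of termination. The sources used here do not state which strand is counted as positive, so a rise is called a rise and not an origin.

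The mouse MHC is known for genes that present antigen to T cells. Its class I end carries many H2 genes, tripartite motif (Trim) genes of ubiquitin ligases and a long cluster of olfactory receptor genes, which are expressed in neurons of the nose. Trim26 is a ubiquitin ligase. Zfp57 is a KRAB zinc finger protein that keeps DNA methylation at imprinted loci in embryonic stem cells. Mog is a glycoprotein of myelin, Gabbr1 is a subunit of the GABA-B receptor, and H2-M3 is a class I molecule that presents formylated peptides.

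Trim26 lies at 36837123 to 36859398, Zfp57 at 37001163 to 37010729, Mog at 37010740 to 37023398, Gabbr1 at 37045966 to 37074305 and H2-M3 at 37270234 to 37274485 on chromosome 17. Mog is on the minus strand and the others are on the plus strand. These are whole gene intervals of RefSeq (GRCm38.p6), and a window of 100 kb covers exons, introns and neighbouring genes alike. Promoters (250 bases before to 50 after a start) were found in RefSeq for 5 of the 5 members, with 7 starts in all. The 3 members whose starts lie nearest the sign change of the mean profile are shown, with each CG dinucleotide in capitals. The starts shown lie -3.33 kb (Zfp57), 16.4 kb (Mog) and 39.0 kb (Gabbr1) from that sign change. Zfp57 is shown at its start nearest the sign change, chr17:37003416-37003715 on the plus strand. Mog is shown at chr17:37023349-37023648 on the minus strand and Gabbr1 at chr17:37045716-37046015 on the plus strand.
Zfp57: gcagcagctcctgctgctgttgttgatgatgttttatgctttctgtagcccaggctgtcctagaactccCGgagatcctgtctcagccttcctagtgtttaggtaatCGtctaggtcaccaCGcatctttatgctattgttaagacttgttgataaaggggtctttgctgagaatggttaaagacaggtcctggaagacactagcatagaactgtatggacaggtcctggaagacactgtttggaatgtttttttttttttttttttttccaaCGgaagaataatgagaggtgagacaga
Mog: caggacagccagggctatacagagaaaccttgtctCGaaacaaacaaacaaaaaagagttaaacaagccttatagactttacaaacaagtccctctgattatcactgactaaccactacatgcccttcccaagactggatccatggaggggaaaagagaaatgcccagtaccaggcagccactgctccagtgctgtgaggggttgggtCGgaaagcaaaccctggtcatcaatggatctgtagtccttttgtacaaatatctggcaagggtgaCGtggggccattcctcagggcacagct
Gabbr1: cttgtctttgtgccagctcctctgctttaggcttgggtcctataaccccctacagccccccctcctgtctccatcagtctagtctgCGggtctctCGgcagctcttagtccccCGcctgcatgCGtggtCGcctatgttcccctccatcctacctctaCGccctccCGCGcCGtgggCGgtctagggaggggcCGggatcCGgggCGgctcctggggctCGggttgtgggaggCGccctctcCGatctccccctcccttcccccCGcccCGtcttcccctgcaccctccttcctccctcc
The dinucleotide CG, which reads the same on both strands, occurred 4 times in the Zfp57 promoter shown, 6 and 9 times at the other Zfp57 starts, and 3 times in the promoter of Mog. Of 32851 promoters in the table, 68.6% had at least 4, 56.4% at least 6, 45.8% at least 9 and 76.7% at least 3. The Gabbr1 promoter had 18, a number that 29.7% of promoters reached or passed. Trim26 had 19 (28.1% of promoters) and H2-M3 had 9 (45.8%). The profile resolves 100 kb windows, so these letters are context for the genes and not sites found by the assay.

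Polarity turned from negative to positive at Zfp57 and Mog in every library. The profile smoothed with a running mean of 5 windows passed 0 at 37007000 in WT replicate 1 and at 37004000 in WT replicate 2. In KO it did so at 37007000 and 37008000 in replicates 1 and 2. All of these points lie inside Zfp57, and the mean of the 4 libraries crossed at 37007000. The gene depends on the smoothing: in the unsmoothed windows only WT replicate 2 crossed inside Zfp57, at 37007000, and the other libraries crossed inside Mog, at 37012000 to 37016000. With a running mean of 9 windows the points were 36999000 to 37000000, left of Zfp57. The genotypes differed by 1.93 kb, with a pooled replicate SD of 1.59 kb, against windows spaced 25 kb. The difference between genotypes was thus a small part of a window.

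**Figure D1:**
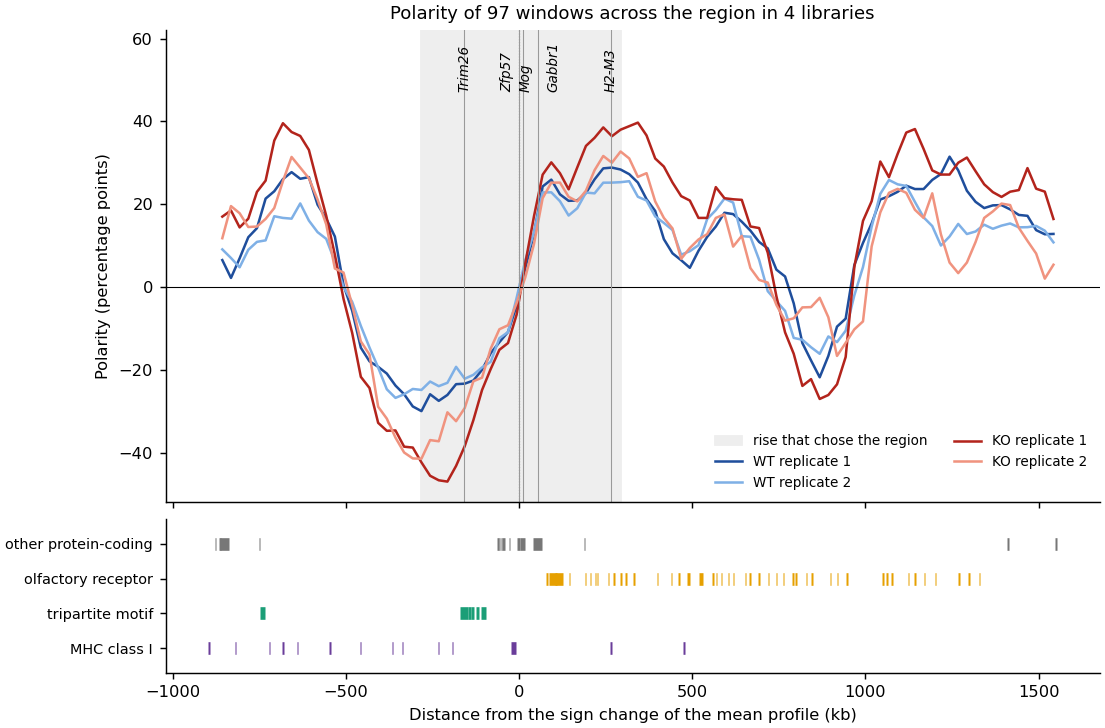
Polarity in percentage points (vertical axis) against distance in kb from the sign change of the mean profile (horizontal axis), as a line for each of the 4 libraries, with vertical lines at the member genes, the rise in grey and the genes of each list below. The 4 lines cross 0 together at Zfp57 and Mog, and both KO lines lie below both WT lines from the low point of the rise past Trim26 but not in the last 100 kb before the sign change.

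The members were described by the window whose midpoint is nearest that of the gene. At Trim26, left of the sign change by 159 kb, polarity was -23.4 and -22.2 points (WT replicates 1 and 2) against -38.5 and -29.2 points (KO replicates 1 and 2). Both KO values were lower than both WT values. The means were -22.8 ± 0.847 points (WT) and -33.9 ± 6.52 points (KO; SD, n = 2 each), and differed by -11.1 points against a pooled replicate SD of 4.65. Without KO replicate 1 the difference was -6.47 points, and in the window nearest the start site of the gene it was -16.4 points. In the adjoining window on the left, from 36700001, the values were -25.9 and -22.9 points (WT) against -45.6 and -37.0 points (KO). In points, that window had the largest difference of the region, -16.9 against a pooled replicate SD of 4.57. In the adjoining window on the right, from 36900001, WT had -13.4 and -12.4 points and KO had -15.2 and -10.2 points, and the groups overlapped. Towards Zfp57, KO was below WT in both libraries as far as the window from 36850001.

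At Zfp57 polarity was close to 0. It was -4.52 and -2.60 points (WT) against -6.64 and -3.85 points (KO), and KO replicate 2 lay between the WT libraries. The means were -3.56 ± 1.36 points (WT) and -5.24 ± 1.97 points (KO; SD, n = 2 each), and the difference of -1.68 points was no larger than the pooled replicate SD of 1.69. On either side the window ending at the left edge of that of Zfp57 held -20.0 and -19.4 points (WT) against -24.9 and -21.9 points (KO). The window starting at its right edge held 25.9 and 22.8 points (WT) against 30.1 and 25.2 points (KO). The step across the gene was thus present in each library, with both signs on its sides.

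Mog, which lies tail to tail with Zfp57, had polarity just above 0. It was 4.65 and 6.50 points (WT) against 5.74 and 2.35 points (KO), and the groups overlapped. The means were 5.58 ± 1.31 and 4.05 ± 2.40 points (SD, n = 2 each), a difference of -1.53 points against a pooled replicate SD of 1.93. Gabbr1, right of the sign change by 53 kb, had 12.8 and 13.1 points (WT) against 17.1 and 10.4 points (KO). The WT libraries lay between the KO libraries. The means were 13.0 ± 0.204 and 13.7 ± 4.74 points (SD, n = 2 each), a difference of 0.739 points against a pooled replicate SD of 3.35, which turned to -0.154 SD after standardising and to -2.61 points without KO replicate 1. The windows of Zfp57 and Mog share 75 kb, as do those of Mog and Gabbr1, so their values are not independent.

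H2-M3, right of the sign change by 265 kb among olfactory receptor genes, had the highest polarity of the members. It was 28.8 and 25.2 points (WT) against 36.4 and 30.0 points (KO), and both KO values exceeded both WT values. The means were 27.0 ± 2.57 and 33.2 ± 4.53 points (SD, n = 2 each), a difference of 6.19 points against a pooled replicate SD of 3.68. Without KO replicate 1 it was 2.99 points, and without KO replicate 2 it was 9.40 points. In units of each library's own SD over autosomal windows the difference was 0.00180 at H2-M3 and -0.332 at Trim26. In the adjoining windows on the left KO replicate 2, at 20.7 points, was below WT replicate 1 at 20.9, and on the right it was above both WT values, at 27.5 points against 21.2 and 20.9.

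In each of the 4 libraries the members rose in chromosome order, Trim26, Zfp57, Mog, Gabbr1 and H2-M3. From Trim26 to Zfp57 the step was 19.2 ± 0.510 points (WT) against 28.6 ± 4.54 points (KO; SD, n = 2 each). From Zfp57 to Mog it was 9.14 ± 0.0497 and 9.29 ± 4.37 points, and from Mog to Gabbr1 7.41 ± 1.10 and 9.68 ± 2.34 points. From Gabbr1 to H2-M3 it was 16.0 and 12.1 points (WT) against 19.3 and 19.6 points (KO). In points, the outer steps were thus larger in KO in both libraries, and the inner steps overlapped between the genotypes. After standardising, the step from Trim26 to Zfp57 was still larger in both KO libraries. The step from Gabbr1 to H2-M3 then overlapped between the genotypes.

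**Figure D2:**
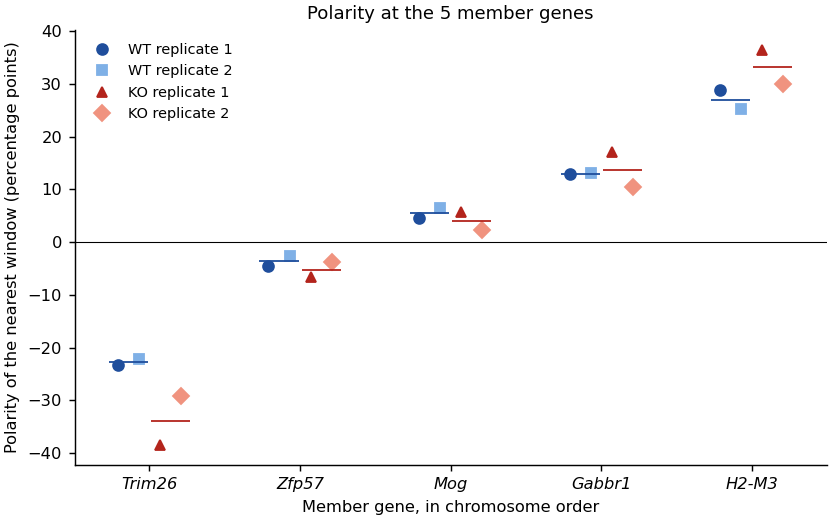
Polarity in percentage points (vertical axis) of the window nearest each member gene (horizontal axis), with a symbol per library and a short line at the mean of each genotype. At Trim26 both KO symbols lie below both WT symbols and at H2-M3 above them, whereas at Zfp57, Mog and Gabbr1 the genotypes overlap.

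The rise as a whole ran from 36725000 to 37300000, a length of 575 kb between window midpoints. Its lower end is nearest the class I gene H2-M10.5 and its upper end lies in the olfactory receptor gene Olfr101. The rise was 55.3 and 49.1 points (WT replicates 1 and 2) against 80.7 and 69.8 points (KO replicates 1 and 2). The mean rise over the 4 libraries, 63.7 points, was second among 2455 rises called in the same way on the autosomes, where the median was 28.7. The next taller rise had 65.1 points and the next lower 63.5. By the mean of KO it ranked 1 of 2455 and by the mean of WT 25. By length it ranked 10, against a median of 225 kb. It was not among the steepest: 11.1 points per 100 kb was below the median of 12.2, and its largest change over 100 kb, 26.6 points, ranked 399 against a median of 18.7. The choice of the region rests on a steep rise, and the data show a tall and long one.

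The KO profile went beyond that of WT at both ends of the rise. At the lower end, smoothed polarity was -27.7 and -24.5 points (WT) against -42.4 and -39.4 points (KO). At the upper end it was 27.7 and 24.6 points (WT) against 38.3 and 30.4 points (KO). The difference was -14.9 points at the lower end (pooled replicate SD 2.18) and 8.21 points at the upper end (pooled replicate SD 4.23). The KO to WT ratio was 1.57 at the lower end and 1.31 at the upper end. In units of each library's SD the differences were -0.549 and 0.127, and the ratios 1.29 and 1.07. The SD of polarity over autosomal windows was 14.6 and 12.8 points (WT) against 19.5 and 14.5 points (KO). KO replicate 1 thus had the widest spread of values, and KO replicate 2 lay between the WT libraries.

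The rise was divided at 100 kb on either side of the sign change, a division chosen after the profile was seen. Between the lower end and 100 kb before the sign change, where Trim26, Trim15, Trim10, Trim40 and Trim31 begin, the profile rose by 9.28 and 6.42 points (WT) against 17.7 and 20.7 points (KO). In the middle 200 kb, which hold Zfp57, Mog and Gabbr1, it rose by 40.1 and 37.7 points (WT) against 50.4 and 40.1 points (KO). From there to the upper end it rose by 5.96 and 4.91 points (WT) against 12.6 and 9.02 points (KO). The genotype differences were 11.4, 6.37 and 5.35 points, with pooled replicate SDs of 2.08, 5.32 and 1.85. In all 3 stretches both KO values exceeded both WT values, in the middle by little, since KO replicate 2 and WT replicate 1 both round to 40.1. The slope per 100 kb at the sign change was 30.1 and 28.2 points (WT) against 33.9 and 25.3 points (KO), and the WT values lay between those of the KO.

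Since the libraries differed in that spread, the rise was also taken in units of each library's SD. On that scale the WT rises were 3.78 and 3.82 SD, the KO rises were 4.15 and 4.81 SD, and the genotypes differed by 0.676 SD. The outer stretches remained larger in KO, by 0.602 SD before the sign change and by 0.238 SD after it. The middle 200 kb had the opposite sign, a difference of -0.163 SD with a pooled replicate SD of 0.130, and the genotypes overlapped. Over all rises the median difference was 6.16 points and -0.0329 SD. Both KO values exceeded both WT values in 40.9% of rises on the deposited scale and in 24.4% after standardising, so that order is common among rises.

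**Figure D3:**
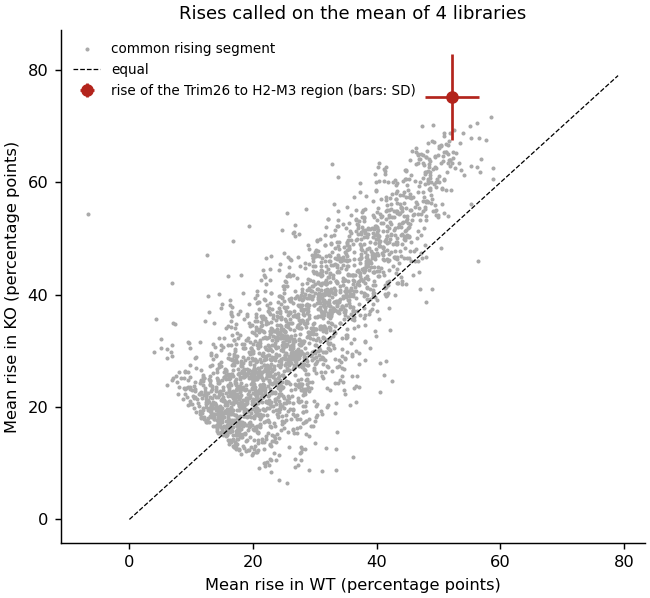
Mean rise in KO against mean rise in WT, both in percentage points, for 2455 rises called on the mean of the 4 libraries, with the rise from H2-M10.5 to Olfr101 in red, its bars the SD of 2 libraries, and a dashed line at equality. The red point, at 52.2 points in WT and 75.3 points in KO, has the highest KO value.

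Levels in the rise were extreme in KO. Each library's own lowest window was -30.0 and -26.8 points (WT) against -47.0 and -41.5 points (KO). Among 94694 autosomal windows, 525 and 658 were lower in WT, but only 2 and 12 were lower in KO replicates 1 and 2. The highest window of each library was 28.8 and 25.5 points (WT) against 39.7 and 32.7 points (KO), exceeded by 0.977% and 1.11% of windows in WT and by 0.465% and 0.364% in KO. The mean absolute difference between replicates over the 34 windows of the rise and its margins was 2.24 points (WT) against 6.49 points (KO). Over all autosomal windows it was 4.00 and 6.98 points.

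Both KO libraries were farther from 0 than both WT libraries, with all 4 values of one sign, in 25 of the 34 windows of the rise and its margins. Over all autosomal windows this was so in 26.4%. These 25 come from the contrast that chose the region. They formed a run from the window at 36550001 to that at 36850001, with KO below WT, and 12 windows between 37075001 and 37375001, with KO above WT. Between these stretches, at Zfp57, Mog and Gabbr1, no window separated the genotypes. After standardising, the count was 14 of 34, where 16.1% of all autosomal windows had that order, and KO was nearer 0 than WT in 6 of the 34 (16.2% of all autosomal windows), against 0 on the deposited scale (5.64% of all). Over the region of 97 windows the count farther from 0 was 40, and after standardising it was 24, with 10 nearer 0.

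**Figure D4:**
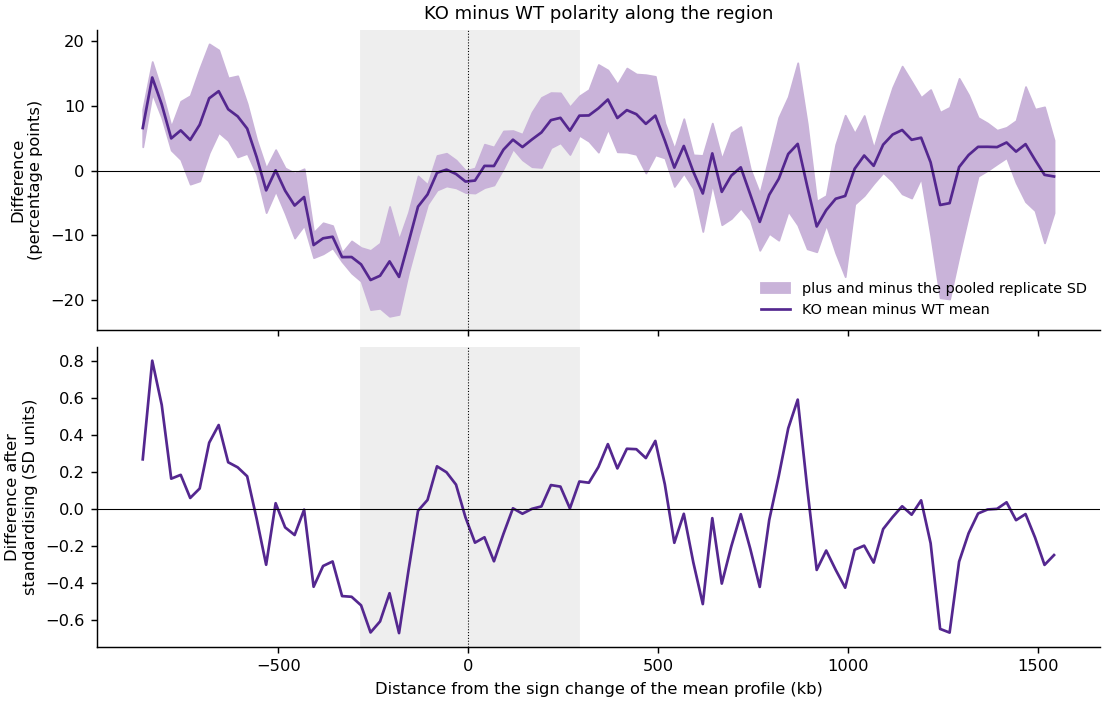
KO mean minus WT mean of polarity along the region, in percentage points with a band of the pooled replicate SD (upper panel) and in units of each library's SD (lower panel), against distance in kb from the sign change, with the rise in grey. In points, the difference is most negative left of the sign change, near 0 at it, and positive from about Olfr90 to the right end of the rise. In SD units it is lowest left of the sign change within the rise (-0.672) and nearly as low in the right flank (-0.669). It is highest in the left flank (0.800), and right of the sign change it lies on both sides of 0.

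The flanks were used neither by the rise nor by its running means, and were tested. The left flank, 18 windows from 36100001 to 36625000, holds H2-T3, Rpp21, Trim39 and H2-M10.1 to H2-M10.4, and polarity there first rose and then fell through 0. Its mean polarity was 11.3 and 7.87 points (WT) against 15.9 and 13.1 points (KO), and both KO values exceeded both WT values. KO exceeded WT by 4.93 points against a pooled replicate SD of 2.22 (exact two-sided permutation p = 0.333, the lowest value that this design can give, so 0.05 is out of its reach). Its highest window was 27.7 and 20.2 points (WT) against 39.5 and 31.4 points (KO). After standardising, the difference in mean polarity was 0.168 SD.

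The right flank, 45 windows from 37400001 to 38600000, holds mostly olfactory receptor genes, 32 of its 35 protein-coding genes. Its mean polarity was 11.8 and 8.96 points (WT) against 15.0 and 7.52 points (KO), so that the WT libraries lay between the KO libraries. The difference was 0.875 points against a pooled replicate SD of 4.01 (exact two-sided permutation p = 1). It turned to -0.108 SD after standardising, to -2.87 points without KO replicate 1 and to -0.552 points without WT replicate 2. KO replicates differed by 12.0 points on average here, more than the 6.62 points of the left flank, and WT replicates by 5.08 points.

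Window by window, limma with Benjamini-Hochberg adjustment over 23672 autosomal windows called none of the 17 flank windows that do not overlap (count 0), where 0.0549% of all windows were called. At an unadjusted p-value under 0.05 it called 1 of the 17, against 12.2% of all windows. This was the window at 36300001 to 36400000, which holds H2-M10.1 and H2-M10.3, with 27.7 and 16.5 points (WT) against 37.4 and 31.4 points (KO). There KO exceeded WT by 12.3 points (SE 4.91; limma adjusted p = 0.326). No flank window was called without WT replicate 1 or 2. Without KO replicate 1 the count was 1 of 17, where 5.79% of all windows were called, and without KO replicate 2 it was 3 of 17, where 20.2% were.

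KO lay farther from 0 than WT in 8 of 18 overlapping windows of the left flank and in 7 of 45 of the right flank, against the 26.4% of all windows. The largest difference of the left flank was in the window from 36125001, nearest the class I-like gene Gm8909. It held 2.17 and 6.99 points (WT) against 18.5 and 19.5 points (KO), a difference of 14.4 points with a pooled replicate SD of 2.47. After standardising, its difference of 0.800 SD was the largest of the whole region, the rise included. In points, the largest difference of the right flank was in the window from 37400001, nearest Olfr108. It held 8.12 and 13.7 points (WT) against 25.2 and 14.1 points (KO). There KO replicate 2 lay just above WT replicate 2, and the difference of 8.74 points compares with a pooled replicate SD of 6.21.

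The rise stood between falls. On its left the profile fell from 36350000 to 36725000, with changes of -53.6 and -41.7 points (WT) against -78.8 and -65.7 points (KO), ending at the same low point that the rise starts from. On its right it fell from 37300000 to 37500000, with changes of -19.7 and -13.3 points (WT) against -18.0 and -19.5 points (KO), and the groups overlapped. A further fall from 37600000 to 37875000 took the profile below 0 among olfactory receptor genes, with a change of -31.5 points in each WT library and of -45.5 and -21.1 points in KO. A second rise followed from 37875000 to 38100000, of 38.7 and 37.4 points (WT) against 57.4 and 28.4 points (KO). Both WT libraries lay between the KO libraries in the segments from 37600000 to 38100000, so in both of them the KO libraries differed more from each other than the genotype means did.

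The region holds 81 protein-coding genes of RefSeq, with 53 pseudogenes beside them. Each was given the polarity of its nearest window, and neighbouring genes share windows, so genes are not independent. The 14 MHC class I genes (symbols starting with H2-) lay on both sides, 12 left and 2 right of the sign change. Their polarity was negative in all libraries at 6 and positive at 8. By the mean of the 4 libraries, the rule for every list here, the lowest was at H2-M10.5, with -27.5 and -24.0 points (WT) against -46.7 and -37.3 points (KO). The highest was at H2-M3, given above, and H2-M2 was near the middle of the list with 6.44 and 7.79 points (WT) against 21.9 and 6.79 points (KO). A class I gene could thus lie at either extreme of the profile.

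All 6 tripartite motif genes lay left of the sign change, and 5 of them were negative in every library. The median was -22.6 and -21.2 points (WT) against -32.2 and -22.8 points (KO). Trim26 was the lowest, and Trim15, Trim10 and Trim40 shared a window at the median of the list. Trim39, in the left flank, was the exception with 21.3 and 11.2 points (WT) against 25.7 and 16.4 points (KO). At the 5 negative genes both KO values were lower than both WT values, an order found in 22.5% of all autosomal windows, but these 5 lie in the rise that chose the region. After standardising, the genotypes overlapped at Trim15, Trim10, Trim40 and Trim31, and the order held at Trim26.

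All 46 olfactory receptor genes lay right of the sign change. Polarity was positive in all libraries at 36, negative in all at 7 and of mixed sign at 3. The median was 19.5 and 17.1 points (WT) against 25.9 and 16.7 points (KO), so the KO libraries lay on both sides of WT. The highest was at Olfr101, with 28.4 and 25.3 points (WT) against 38.0 and 32.7 points (KO). The lowest was at Olfr128, with -9.60 and -13.3 points (WT) against -23.5 and -16.7 points (KO). Olfr138, near the middle of the list, had 28.2 and 15.2 points (WT) against 30.0 and 3.33 points (KO). The cluster therefore held a wide range of polarity within each library.

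The other 15 protein-coding genes included Znrd1as, which shares the lowest window with Rnf39, Ppp1r11 and Znrd1, with -13.4 and -12.4 points (WT) against -15.2 and -10.2 points (KO). Gm10499, at the middle, had 7.77 ± 1.83 points (WT) against 14.4 ± 3.69 points (KO; SD, n = 2 each). The highest was Ubd, a ubiquitin-like protein, with 22.7 and 22.8 points (WT) against 34.1 and 23.2 points (KO). Among the 47 genes of both flanks, both KO values exceeded both WT values at 11 and were below them at 3. Over all autosomal windows these orders were found in 22.2% and 22.5%. Counted by window, both KO values exceeded both WT values in 8 of 18 (left flank) and 5 of 45 (right flank). They were below them in 0 and 3. After standardising, KO was above in 7 (left) and 1 (right) and below in 1 (left) and 6 (right). Of all 94694 autosomal windows, KO was then above in 21355 and below in 21296.

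**Figure D5:**
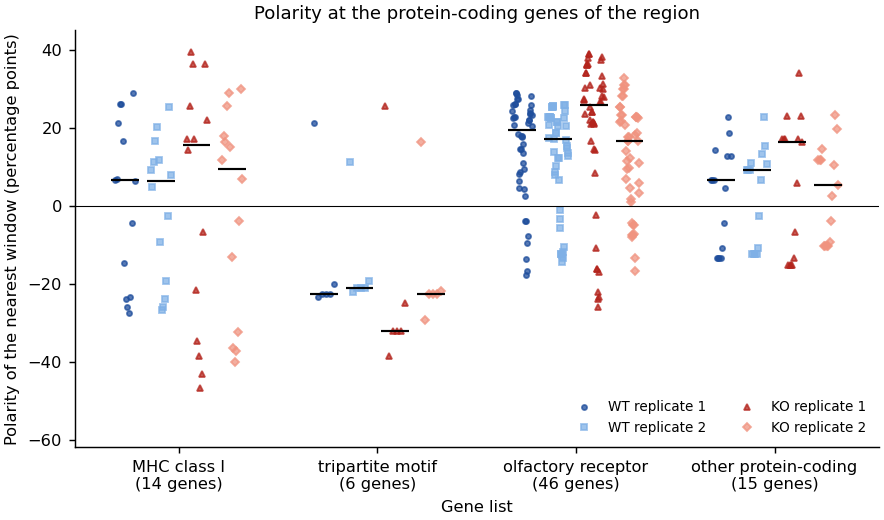
Polarity in percentage points (vertical axis) of the window nearest each protein-coding gene of the region, by gene list (horizontal axis) and library, with black lines at the medians; genes can share windows. The tripartite motif genes lie below 0 except Trim39, most olfactory receptor genes lie above 0, and the class I genes lie on both sides.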

How the data were processed

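TrAEL-seq libraries of WT and Snf2h KO cells (2 each) were grouped as the labels give them. Per the submitters' processing notes, reads were handled with Trim Galore 0.6.5 and Bowtie2 2.4.1. Per the file headers, alignment was to GRCm38 plus an rRNA sequence, followed by deduplication. The deposited score is a signed strand imbalance from -50 to 50 points in windows of 100 kb spaced 25 kb. The program that made it, its sign and any read minimum are not given in the sources used here. The table holds no read counts, so depth is unknown and no counting interval was computed. Over the genome 7641 to 8249 windows per library had no value. For WT replicate 2 the label and the column name give different indexes, and columns were matched by sample name.

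Fits used 23672 full-length autosomal windows that do not overlap, with a value in all libraries, and limma 3.58.1 (lmFit, eBayes) in R 4.3.3 with Benjamini-Hochberg adjustment at 0.05. The profile used 94694 overlapping windows. Rises were taken from the 5-window running mean of the mean of the 4 libraries, from a local minimum to the next maximum, at a minimum of 1 SD. Flanks exclude every window that enters the running mean at an end of the rise. Replicate spread is the SD of 2 libraries, pooled over genotypes beside a difference. Genes are intervals of RefSeq (GRCm38.p6). Genes were named at the ends, sign change and largest flank differences of the profile, and at the lowest, middle and highest value of each list. A few others were named for their place in a stretch, after their values were seen. The members, the lists and the region were chosen with earlier results of these data known. The limma step was tested on simulated data, where it recovered large shifts but not shifts of about the largest size seen in the flanks, so an absence of calls there does not show that the genotypes were alike. Same-numbered libraries deviated together with a correlation of 0.241 over windows (0.0158 after standardising). All 4 labels begin with the same lane name, and none names a culture or batch that same-numbered libraries share. Replicate numbers were therefore not taken as pairs. Alternatives were other smoothing, scaling, window choices, limma options, a replicate block and omission of each library. Python 3.11.15, numpy 2.4.6, pandas 2.3.3 and matplotlib 3.10.9 were used.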

Additional observations from a re-analysis of the deposited data

How the results depend on the processing

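Depth is unknown, and n = 2 per genotype limits every comparison. The alternatives of the flank tests, the rise, the sign change and the member genes were tried one at a time. The exception was standardising, which was also combined with the replicate block. The count of separated windows after standardising, and the division of the rise at 100 kb, were added after seeing the data. For the comparisons, apart from omission of a library, 18 alternatives gave the same result, 5 moved the value and 1 reversed it. For the member genes 16 gave the same result, 3 moved it and 1 reversed it. With each library standardised, the rise difference was 0.676 SD, the left flank difference 0.168 SD and the right flank difference -0.108 SD. Windows with KO farther from 0 than WT fell from 40 to 24 of 97 (background 16.1%), and the Gabbr1 difference reversed to -0.154 SD. Divided by each library's mean rise, the rise difference was 0.379. Without smoothing, the sign change differed by 4.72 kb. With omission of each library, the rise difference ranged from 17.7 to 28.5 points, the sign change from 0.411 to 3.44 kb, the left flank from 3.23 to 6.64 points and the right flank from -2.87 to 4.62 points. With omission of a library the Gabbr1 difference ranged from -2.61 points (without KO replicate 1) to 4.09 points, and the Mog difference from -3.22 to 0.169 points (without KO replicate 2). The Trim26 difference ranged from -15.7 to -6.47 points, that of Zfp57 from -3.07 to -0.282 points and that of H2-M3 from 2.99 to 9.40 points, with the ends of each range given by omission of a KO library. What these changes come from was not tested. With the replicate block, limma called 0 of the 17 flank windows, against 630 of 23672 over the genome. At an unadjusted p-value under 0.05 it called 2 of the 17, against 17.6% of all windows. Flank calls ranged from 0 to 3 with omission of a library, where the lone sample is assumed to vary like the other group. Those omissions called 8 and 7 of 23672 windows over the genome without WT replicates 1 and 2, and 1371 and 4790 without KO replicates 1 and 2. Flank calls were 0 with overlapping windows, standardising, standardising with the block, an atanh scale, limma's trend and robust options and a threshold of 0.1. Over the genome the settings that keep all libraries called 0 (atanh, with 2655 at an unadjusted p-value under 0.05) to 856 windows (standardising with the block).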

Other observations

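Rises elsewhere were compared by their height in the 4 libraries. The 3 most like this one, by Euclidean distance over the 4 rises, were nearest Elf2 on chromosome 3, Epp13 on chromosome 7 and Mrpl39 on chromosome 16, at distances of 8.70, 10.1 and 10.3 points. Elf2 is an ETS transcription factor and Mrpl39 a mitochondrial ribosomal protein. The rise near Elf2, from 51025000 to 51675000, was 54.7 and 50.4 points (WT) against 73.3 and 65.5 points (KO). Its length was 650 kb. The rise near Epp13 was 53.5 and 50.3 points (WT) against 76.9 and 60.7 points (KO) over 450 kb. That near Mrpl39 was 60.2 and 50.1 points (WT) against 79.0 and 60.9 points (KO) over 400 kb. In units of each library's SD the KO minus WT differences were 0.304, 0.276 and 0.119, against 0.676 for the rise over Zfp57, which ranked 153 of 2455 rises by that difference and 34 by the difference in points. The 3 rises were picked on the values given here, so their likeness is no result.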
